A study of Homo sapiens with 18 samples.

Results

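The transcriptomes of HepG2, a human liver cancer line, and SH-SY5Y, a human neuroblastoma line, were compared in cells that had received the same control plasmid, which encodes the green fluorescent protein mNeonGreen and no miRNA. The members were chosen by line and plasmid from the sample titles: 3 HepG2 libraries and 3 SH-SY5Y libraries, 6 of the 18 libraries of the series. The series set this plasmid against one that adds the miRNA EXACT1, in HEK293A, HepG2 and SH-SY5Y cells, within work on a self-regulating gene therapy. Both lines came from the same repository and were kept in the same medium with fetal bovine serum. The labels describe HepG2 as hepatocellular carcinoma, seeded in 96-well plates and lipofected with Lipofectamine 2000 and 100 ng plasmid per well. They describe SH-SY5Y as neuroblastoma, transfected by Lonza nucleofection. Line and transfection method therefore changed together and cannot be told apart. The labels give no time of harvest. They are also silent on whether the 3 libraries of a group stem from different cultures, and a p-value here reflects the spread among libraries, which could be technical.

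HepG2 cells keep much of the programme of a fetal hepatocyte: a liver secretes albumin, lipoproteins, clotting factors and complement into the blood, under transcription factors of the HNF, FOXA and C/EBP families. The line carries a deletion in CTNNB1 that stabilises beta-catenin, the effector of Wnt signalling. SH-SY5Y is a clonal derivative of the neuroblastoma line SK-N-SH, from the sympathetic nervous system, and carries an activating mutation of the receptor kinase ALK. Sympathetic neuroblasts are specified by factors such as PHOX2A, HAND2 and GATA3, make noradrenaline from tyrosine through TH, DDC and DBH, and store it in dense-core granules with granins. Each is 1 cancer line, so a difference between them is a difference of these 2 lines and not of liver and nerve in general.

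Library totals lay between 66056962 and 74942486 counts. HepG2 libraries had counts in 21758 to 21857 genes and SH-SY5Y libraries in 23179 to 25630. The 10 most abundant genes took 14.7% to 16.1% of the counts in HepG2 and 4.6% to 5.95% in SH-SY5Y. SH-SY5Y library 2 stood apart from its group: Pearson's r of log2 CPM was 0.9781 between SH-SY5Y libraries 1 and 3, 0.9238 to 0.9289 between library 2 and these, and 0.9782 to 0.9795 within HepG2. Ribosomal protein genes took 12.6% of its counts, against 5.61% and 5.51% in libraries 1 and 3. Where leaving it out changed a call or moved a printed log2 fold change by more than 1.5-fold, the value without it is given.

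The lines differed in many of the genes tested, and the share called depended on the libraries used. Of 19775 genes tested, 10526 (53.2%) were called by edgeR's quasi-likelihood test at a Benjamini-Hochberg adjusted p under 0.05. Higher levels were called in HepG2 for 4596 genes (23.2%) and in SH-SY5Y for 5930 (30%). A call together with a difference of at least 4-fold was met by 3004 genes higher in HepG2 (15.2%) and by 4099 higher in SH-SY5Y (20.7%). For 13526 genes (68.4%) the 3 libraries of one line all lay above the 3 of the other, those of HepG2 in 6112 (30.9%) and those of SH-SY5Y in 7414 (37.5%). Without SH-SY5Y library 2 there were 14714 calls among 20991 genes (70.1%), 6793 higher in HepG2 (32.4%) and 7921 higher in SH-SY5Y (37.7%), and 3372 (16.1%) and 4250 (20.2%) were also at least 4-fold apart. Between the fits 10372 genes were called in the same direction (98.5% of the first set and 70.5% of the second). Other fits called a smaller share: 40.7% or 40.8% without any 1 HepG2 library, and 47.2% and 49.8% without SH-SY5Y library 1 or 3. With the replicate number as a block it was 44.1%. The direction split rests on scaling: TMM scaling put 43.7% of the calls higher in HepG2 with a median log2 fold change over all genes of -0.27, and library totals alone put 27.5% there with a median of -0.91.

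**Figure D1:**
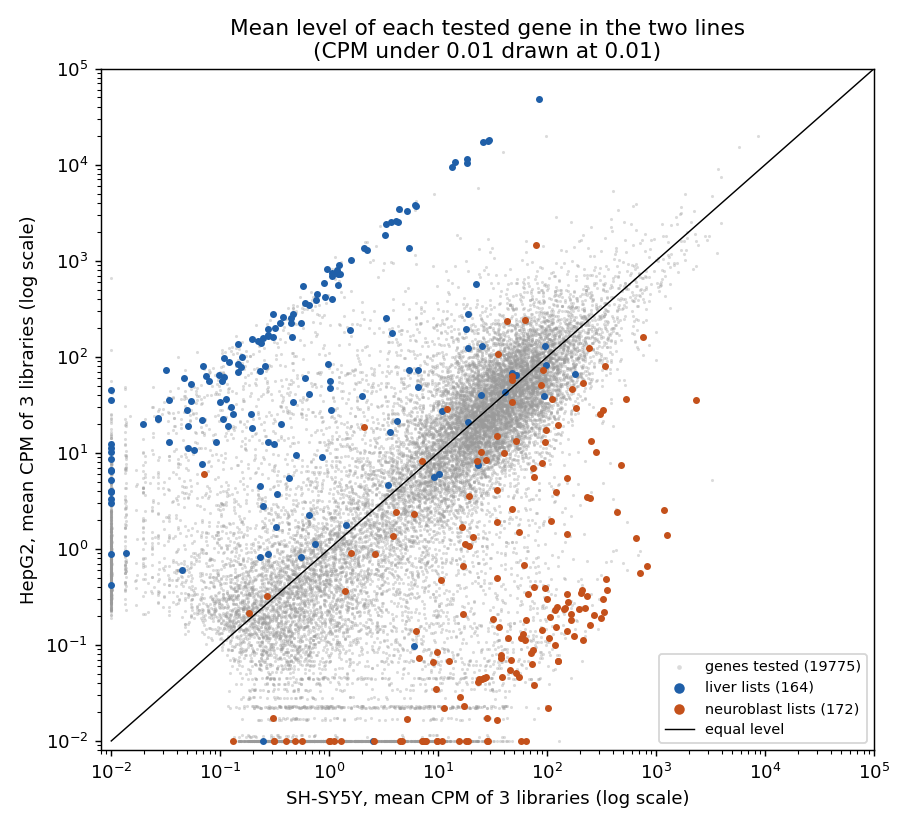
Mean CPM of 3 SH-SY5Y libraries (horizontal, log scale) against mean CPM of 3 HepG2 libraries (vertical, log scale) for the 19775 genes tested, with 164 liver genes in blue, 172 neuroblast genes in orange and a line of equal level. Most blue points of high level lie along a second line far above and parallel to that of equal level.

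Genes for proteins that the liver secretes formed the top of the HepG2 transcriptome. ALB, the main protein of plasma (GENCODE 29 on GRCh38, chromosome 4, 73397114 to 73421412), stood at 51928.5, 47047.2 and 44356.7 CPM in HepG2 and at 72.6, 103.1 and 74.5 CPM in SH-SY5Y, 573.2-fold higher (log2 fold change 9.16, SE 0.30, adjusted p = 6.90e-06). Per length, its level was 40934.9 ± 2272 TPM (SD, n = 3) in HepG2 and 102 ± 11.7 TPM in SH-SY5Y. Every HepG2 library was far above every SH-SY5Y library. Alpha-fetoprotein (AFP), the albumin relative of the fetal liver, stood at 19679.7, 16906.3 and 16736.9 CPM in HepG2 and at 24.4, 34.4 and 26.6 CPM in SH-SY5Y (log2 fold change 9.29, SE 0.29, adjusted p = 6.90e-06). SERPINA1, an inhibitor of neutrophil elastase, stood at 17512.1, 17851.9 and 16423.5 CPM in HepG2 and at 22.1, 30.7 and 23.9 CPM in SH-SY5Y (log2 fold change 9.40, SE 0.28, adjusted p = 6.90e-06). In TMM-scaled CPM library 2 was the highest SH-SY5Y library for the 3 genes. On library totals the SH-SY5Y libraries were nearly level, at 101.4, 106.4 and 100.1 CPM for ALB. AFP had 34.1, 35.5 and 35.7 CPM there and SERPINA1 30.9, 31.7 and 32.1. The groups did not overlap.

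All 16 tested plasma carrier proteins were higher in HepG2, with a median log2 fold change of 9.24, beside -0.27 over all genes tested. The iron carrier transferrin (TF) had 19763.9, 18238.3 and 16567.8 CPM in HepG2 and 27.1, 33.8 and 26.1 in SH-SY5Y (9.29, SE 0.27, adjusted p = 6.90e-06). Transthyretin (TTR), a carrier of thyroid hormone and retinol-binding protein, had 165.7, 160.3 and 158.7 CPM in HepG2 and 0.253, 0.22 and 0.441 in SH-SY5Y (9.03, SE 0.40, adjusted p = 1.84e-05). Per length TF stood at 2008.3 TPM and TTR at 195.4 TPM in HepG2.

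All 16 tested apolipoproteins and lipoprotein genes were higher in HepG2 as well, with a median of 9.20. APOB, the scaffold of very-low-density lipoprotein, stood at 8970.3, 10632.2 and 11234.3 CPM in HepG2 and at 14.4, 22.6 and 17.8 CPM in SH-SY5Y (9.13, SE 0.32, adjusted p = 7.55e-06). APOA1, the main protein of high-density lipoprotein, stood at 3603.5, 3548.2 and 3276.2 CPM in HepG2 and at 3.52, 5.7 and 3.93 CPM in SH-SY5Y (9.63, SE 0.34, adjusted p = 7.55e-06). Per length the order was the reverse of that in CPM, 7065.4 TPM for APOA1 and 2012.5 TPM for APOB in HepG2.

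Clotting and complement genes followed the same course. Of 20 tested coagulation factors and inhibitors 19 were higher in HepG2 (median 9.27). The fibrinogen chain FGA stood at 3299.5, 3562.0 and 3118.4 CPM in HepG2 and at 3.85, 6.36 and 5.13 CPM in SH-SY5Y (9.35, SE 0.33, adjusted p = 7.55e-06). Its partner chains FGB and FGG, which assemble with it into one protein, had log2 fold changes of 9.32 and 9.31. F2, which encodes prothrombin, stood at 842.1, 842.5 and 754.9 CPM in HepG2 and at 1.14, 0.85 and 0.861 CPM in SH-SY5Y (9.74, SE 0.30, adjusted p = 6.90e-06). The one coagulation gene not called was F12, with 7.48, 8.45 and 6.55 CPM in HepG2 and 10.6, 48.5 and 10.2 in SH-SY5Y (-1.62, SE 0.66, adjusted p = 0.0769). SH-SY5Y library 2 was the highest of the 6 for F12, with a log2 fold change of -0.45 without it (adjusted p = 0.0613), and F12 was called without SH-SY5Y library 3 (-1.98, adjusted p = 0.0424). Of 27 complement and acute-phase genes 25 were higher in HepG2 (median 9.24), such as C3, the hub of the complement cascade, at 9986.8, 9690.2 and 8376.3 CPM in HepG2 and 12.6, 16.1 and 11.5 in SH-SY5Y (9.44, SE 0.30, adjusted p = 6.90e-06). C6 and ITIH4 were not called, at mean levels of 1.77 and 1.13 CPM in HepG2, and the log2 fold change of ITIH4 went from 0.60 to 1.43 without SH-SY5Y library 2, again not called.

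Hepatocyte transcription factors were more mixed: of 23 tested, 17 were higher in HepG2, 1 was higher in SH-SY5Y and 5 were not called (median 5.81). The nuclear receptor HNF4A, a master regulator of hepatocytes, stood at 282.4, 283.4 and 266.5 CPM in HepG2 and at 0.222, 0.586 and 0.574 CPM in SH-SY5Y, 603.7-fold higher (9.24, SE 0.50, adjusted p = 4.00e-05). The pioneer factor FOXA2 had 84.9, 85.8 and 78.6 CPM in HepG2 and 0.111, 0.117 and 0.205 in SH-SY5Y (9.14, SE 0.39, adjusted p = 1.32e-05). Neither HNF4A nor FOXA2 reached 1 CPM in any SH-SY5Y library. CEBPA, which drives metabolic genes of the liver, differed less, with 44, 47 and 51.4 CPM in HepG2 and 0.788, 1.82 and 0.43 in SH-SY5Y (5.56, SE 0.60, adjusted p = 0.000537, and 6.30 without SH-SY5Y library 2). PROX1, a homeobox factor of liver, lymphatic vessels and nervous system, was present in both lines, with 129.0, 125.7 and 134.1 CPM in HepG2 and 111.3, 33.5 and 142.3 in SH-SY5Y (0.44, SE 0.49, adjusted p = 0.488). GATA4, known from liver, gut and heart development, also had over 10 CPM in both, 43.8, 40 and 36 in HepG2 and 25.4, 32 and 17 in SH-SY5Y (0.69, SE 0.29, adjusted p = 0.0869). The groups overlapped for PROX1 but not for GATA4, which was called higher in HepG2 without SH-SY5Y library 2 (0.93, adjusted p = 0.00567).

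Liver metabolism was present in part. Of 28 cytochrome P450 and conjugation genes only 17 passed the filter on low counts, of which 14 were higher in HepG2 (median 8.26). With genes lacking a count in 1 line set at a floor of 3 counts per library, the median was 7.04. CYP27A1, a sterol hydroxylase of bile acid synthesis, stood at 191.9, 203.5 and 187.2 CPM in HepG2 and at 0.293, 0.352 and 0.184 CPM in SH-SY5Y (9.46, SE 0.37, adjusted p = 1.02e-05). SULT2A1, which sulfates steroids and bile acids, stood at 269.6, 291.8 and 272.5 CPM in HepG2 and at 0.313, 0.381 and 0.215 CPM in SH-SY5Y (9.84, SE 0.35, adjusted p = 7.55e-06). The P450 enzymes that carry most drug oxidation in adult liver were at or near 0 in HepG2: CYP3A4 and CYP1A2 had no count in the 3 libraries, and CYP2E1 had 0.104, 0.168 and 0.0827 CPM. A sulfotransferase and a sterol hydroxylase were thus abundant where the main drug-oxidising P450s were not. CYP3A5 had single-digit CPM in both lines and was not called (0.42, 95% interval -0.33 to 1.18, adjusted p = 0.297).

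Transporters, too, were present in part. Of 12 tested hepatocyte transporters 11 were higher in HepG2 (median 7.83). ABCC2, an exporter of conjugates into bile, stood at 408.8, 407.9 and 360.0 CPM in HepG2 and at 0.586, 0.836 and 0.83 CPM in SH-SY5Y (9.03, SE 0.31, adjusted p = 7.12e-06). SLC10A1, the importer of bile acids from blood, had 0.139, 0.0672 and 0.0661 CPM in HepG2, and the bile salt pump ABCB11, also on the bile side, had a count in 1 HepG2 library only. Neither had a count in SH-SY5Y, and neither passed the filter.

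Amino acid and glucose genes also divided. Of 19 tested urea cycle and amino acid genes 13 were higher in HepG2 and 1 in SH-SY5Y (median 6.43). Of 14 tested glucose and ketone genes 11 were higher in HepG2 and 2 in SH-SY5Y (median 7.96). With genes lacking a count in 1 line at the floor, the median of the glucose and ketone genes was 6.64. CPS1, the first enzyme of the urea cycle, stood at 81.1, 89.1 and 85 CPM in HepG2 and at 1.37, 0.498 and 1.06 CPM in SH-SY5Y (6.43, SE 0.46, adjusted p = 0.000122). OTC, the second, had 0.139, 0.118 and 0.331 CPM in HepG2 and did not pass the filter. The gluconeogenic gene PCK1 was high in HepG2, with 154.7, 145.8 and 107.4 CPM in HepG2 and 0.111, 0.279 and 0.041 in SH-SY5Y (9.94, SE 0.74, adjusted p = 0.00014, and 10.79 without SH-SY5Y library 2). FBP1, from the same pathway, went the other way, with 0.122, 0.168 and 0 CPM in HepG2 and 3.48, 10.3 and 4.08 in SH-SY5Y (-5.92, SE 1.07, adjusted p = 0.00393). Its highest value was that of SH-SY5Y library 2, and its log2 fold change was -5.24 without it.

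Promoter sequence was described apart from the counts. RefSeq promoters (GRCh38.p14, 250 bases before to 50 after the start) were matched by symbol for 11744 tested protein-coding genes, of which 1709 were called and at least 4-fold higher in HepG2 and 2203 were so in SH-SY5Y, and 27305 promoters made up the whole table. The HNF1 element, searched as GTTAATNAT on both strands, was in 1.4% of the promoters of HepG2 genes, 0.409% of those of SH-SY5Y genes, 0.485% of those tested and 0.751% of all. The HNF4 element CAAAGTCCA was in 1.11%, 0.182%, 0.324% and 0.359% of the same sets. A TATAAA box, which marks promoters with a focused start, was in 10.2% of the HepG2 set, 6.99% of the SH-SY5Y set, 6.12% of those tested and 12% of all. Of 24 HepG2 genes with an HNF1 element, 11 had it 41 to 80 bases before the start, as had 50 of 205 promoters over the whole table, a window chosen after the positions were seen. The PHOX2 motif TAATNNAAT differed little, with 1.4% of the HepG2 set, 1.54% of the SH-SY5Y set and 1.12% of those tested, and the cAMP response element (CRE) TGACGTCA stood at 2.34%, 2.41% and 3.11%. A match describes letters and is not evidence of binding. The following 100 bases end at the base before the start, 5′ to 3′ along the gene's strand. They are picked examples from the HepG2 set and do not show where the element usually sits. All HNF1 examples have it in the window above, which held 11 of the 24 HepG2 genes with the element. Capitals mark the HNF1 match, or the HNF4 match in PROZ (a clotting cofactor).
ALB (chr4:73404187-73404286, plus strand): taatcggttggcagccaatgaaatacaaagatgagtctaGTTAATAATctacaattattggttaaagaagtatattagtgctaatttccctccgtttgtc
FGA (chr4:154590743-154590842, minus strand): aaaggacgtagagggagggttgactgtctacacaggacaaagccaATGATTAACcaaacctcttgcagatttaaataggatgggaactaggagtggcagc
C4BPA (chr1:207104133-207104232, plus strand): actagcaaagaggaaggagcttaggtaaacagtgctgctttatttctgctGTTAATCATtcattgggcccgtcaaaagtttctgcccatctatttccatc
F13B (chr1:197067261-197067360, minus strand): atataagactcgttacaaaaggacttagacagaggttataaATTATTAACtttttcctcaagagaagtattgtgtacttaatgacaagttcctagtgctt
SLCO1B3 (chr12:20810605-20810704, plus strand): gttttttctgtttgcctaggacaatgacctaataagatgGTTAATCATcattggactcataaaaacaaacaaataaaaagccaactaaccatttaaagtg
LIPC (chr15:58431891-58431990, plus strand): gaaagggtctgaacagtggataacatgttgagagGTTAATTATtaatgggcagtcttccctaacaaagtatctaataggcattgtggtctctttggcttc
PROZ (chr13:113158548-113158647, plus strand): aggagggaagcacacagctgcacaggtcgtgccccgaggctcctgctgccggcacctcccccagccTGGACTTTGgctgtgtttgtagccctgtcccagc

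In these 6 HNF1 promoters the match began 61, 55, 50, 59, 61 and 66 bases before the start in the order printed. The genes serve different roles: C4BPA is a complement regulator, F13B the carrier subunit of clotting factor XIII, SLCO1B3 an importer of organic anions and LIPC the hepatic lipase. Their log2 fold changes were 10.14, 11.89, 7.96 and 10.22 (adjusted p = 9.52e-06, 0.000348, 0.00299 and 0.000558). Without SH-SY5Y library 2 the value for LIPC was 14.40. These genes and PROZ were picked for their sequence after their values were seen.

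The neuroblast programme made up the far side of the comparison. All 20 tested noradrenergic transcription factors were higher in SH-SY5Y (median log2 fold change -9.76). HAND2, a basic helix-loop-helix factor of sympathetic and heart development (GENCODE 29 on GRCh38, chromosome 4, 173524969 to 173530229), stood at 0.435, 0.521 and 0.728 CPM in HepG2 and at 590.5, 878.7 and 670.0 CPM in SH-SY5Y, 1265.7-fold higher (-10.31, SE 0.39, adjusted p = 1.04e-05). GATA3 stood at 0, 0.302 and 0.182 CPM in HepG2 and at 247.6, 245.3 and 249.8 CPM in SH-SY5Y (-10.56, SE 0.97, adjusted p = 0.000297). In TMM-scaled CPM GATA3 was nearly level over the 3 SH-SY5Y libraries, and HAND2 was highest in library 2. This depends on scaling: on library totals GATA3 had 346.2, 253.3 and 335.8 CPM in SH-SY5Y, and HAND2 825.7, 907.3 and 900.5. GATA2 differed less than these, with 8.88, 7.12 and 6.32 CPM in HepG2 and 520.5, 492.7 and 409.0 in SH-SY5Y (-5.99, SE 0.27, adjusted p = 1.72e-05), and KLF13 had the smallest difference of the list (-0.82). MYCN, the oncogene amplified in many other neuroblastomas, was at 0.0696, 0 and 0 CPM in HepG2 and at 14.1, 18.9 and 18.5 CPM in SH-SY5Y (-9.46, SE 0.94, adjusted p = 0.000389), and MYC was present in both, at 121.2, 106.9 and 114.7 and 58.3, 83.7 and 70.4 CPM.

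The noradrenaline pathway was incomplete at its first step. TH, the rate-limiting enzyme of catecholamine synthesis, had 0.296, 0.286 and 0.0661 CPM in HepG2 and 0.172, 0.293 and 0.082 in SH-SY5Y. The groups overlapped and no difference was called (log2 fold change 0.25, SE 0.79, 95% interval -1.64 to 2.14, adjusted p = 0.809). DBH, which turns dopamine into noradrenaline, had 2.94, 3.38 and 1.32 CPM in HepG2 and 687.9, 2151.5 and 660.4 in SH-SY5Y, 457.9-fold higher (-8.84, SE 0.80, adjusted p = 0.000283). DBH was thus among the most abundant SH-SY5Y genes of its group while TH stayed under 1 CPM, with SH-SY5Y library 2 highest for DBH (-8.02 without it). The decarboxylase DDC, which liver also uses, had 16.5, 18.5 and 22.9 CPM in HepG2 and 110.4, 128.9 and 137.2 in SH-SY5Y (-2.70, SE 0.24, adjusted p = 0.000229). The vesicular transporter SLC18A1 had no count in HepG2 and 18.6, 20 and 17.8 CPM in SH-SY5Y, at least 370.9-fold higher over a floor of 3 counts per library (adjusted p = 0.000128), while its relative SLC18A2 stayed under 1 CPM in all 6 libraries. The noradrenaline reuptake transporter SLC6A2 had 0.278, 0.0672 and 0.198 CPM in HepG2 and 102.1, 22.5 and 65.4 in SH-SY5Y (-8.44, SE 0.86, adjusted p = 0.000426). Of 11 tested catecholamine genes 7 were higher in SH-SY5Y, 1 was higher in HepG2 and 3 were not called (median -2.70).

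Granule cargo was high in SH-SY5Y, and part of the granule machinery was not. Of 13 tested granins and neuropeptide genes 10 were higher in SH-SY5Y (median -8.83). With genes lacking a count in 1 line at the floor, the median was -7.22. The granin CHGA had 0.922, 0.487 and 0.562 CPM in HepG2 and 496.7, 1521.9 and 452.4 in SH-SY5Y, 1251.3-fold higher (-10.29, SE 0.79, adjusted p = 0.000153). The neuropeptide galanin (GAL) had no count in HepG2 and 39.6, 111.3 and 40.6 CPM in SH-SY5Y, at least 1258.4-fold higher over the floor (adjusted p = 0.000688). For both genes library 2 was far above libraries 1 and 3, and the log2 fold change of CHGA was -9.47 without it. CPE, the carboxypeptidase that trims prohormones, went the other way, with 1413.9, 1537.2 and 1381.4 CPM in HepG2 and 90.2, 46.9 and 101.0 in SH-SY5Y, 18.2-fold higher in HepG2 (4.19, SE 0.35, adjusted p = 0.000211). The CHGA promoter holds a CRE (capitals, 54 bases before the start), printed here over the same 100 bases from RefSeq GRCh38.p14 to show the site in the most abundant granin.
CHGA (chr14:92923050-92923149, plus strand): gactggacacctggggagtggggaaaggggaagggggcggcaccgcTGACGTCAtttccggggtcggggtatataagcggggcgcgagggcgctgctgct

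Cholinergic genes accompanied the noradrenergic ones. Of 10 tested, 9 were higher in SH-SY5Y (median -9.09, or -8.27 with the same floor). The ganglionic nicotinic receptor subunit CHRNA3 had 0.278, 0.118 and 0.331 CPM in HepG2 and 115.8, 136.7 and 182.3 in SH-SY5Y (-9.21, SE 0.51, adjusted p = 4.48e-05). CHRNB2, another nicotinic subunit, had 0.0696, 0.134 and 0 CPM in HepG2 and 106.3, 149.8 and 124.5 in SH-SY5Y (-10.83, SE 0.82, adjusted p = 0.000146). CHAT, which makes acetylcholine, reached only 0.111, 0.176 and 0.102 CPM in SH-SY5Y, so the receptors were far better expressed than the enzyme.

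Neuronal structure separated the lines without exception in 1 list: all 26 cytoskeletal genes tested were higher in SH-SY5Y (median -8.99, or -8.19 with the same floor). STMN2, a regulator of growth cone microtubules (GENCODE 29 on GRCh38, chromosome 8, 79610814 to 79666175), had 1.78, 0.722 and 1.65 CPM in HepG2 and 1095.5, 1218.5 and 1486.9 in SH-SY5Y, 914.7-fold higher (-9.84, SE 0.51, adjusted p = 3.31e-05). Neurofilament medium chain (NEFM) had 0.0696, 0.168 and 0.132 CPM in HepG2 and 195.5, 132.2 and 203.1 in SH-SY5Y (-10.46, SE 0.46, adjusted p = 1.86e-05). MAP2, which binds dendritic microtubules, had 0.139, 0.118 and 0.165 CPM in HepG2 and 168.5, 70.8 and 219.7 in SH-SY5Y (-10.07, SE 0.63, adjusted p = 7.06e-05). All 3 genes were under 2 CPM in every HepG2 library. Tubulins were present in both lines at unequal levels: TUBB2B had 38.1, 36.9 and 33.7 CPM in HepG2 and 325.5, 878.9 and 396.3 in SH-SY5Y (-3.88, SE 0.44, adjusted p = 0.000624, and -3.29 without SH-SY5Y library 2). TUBA1A, at 38.1, 35.2 and 32.2 and 1777.7, 2965.7 and 2169.1 CPM (-6.03), has near-identical relatives among which reads could be split, as has TUBB2B.

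Synaptic, channel and adhesion genes mostly followed. Of 20 tested synaptic vesicle genes 18 were higher in SH-SY5Y (median -6.30) and NSF and CPLX2 were not called, with 95% intervals of -0.52 to 1.05 and -0.85 to 0.18. SNAP25, a SNARE of the presynaptic membrane, had 0.452, 0.0672 and 0.38 CPM in HepG2 and 84.4, 68.5 and 143.3 in SH-SY5Y (-8.36, SE 0.78, adjusted p = 0.000313). All 16 neuronal RNA-binding proteins tested were higher in SH-SY5Y (median -7.79), among them ELAVL4, which stabilises neuronal transcripts, with 0.331, 0.302 and 0.496 CPM in HepG2 and 385.2, 174.9 and 510.5 in SH-SY5Y (-9.88, SE 0.61, adjusted p = 6.66e-05). Both genes were lowest in library 2 among the SH-SY5Y libraries. Of 19 voltage-gated channel genes 15 were higher in SH-SY5Y and 1 in HepG2 (median -9.08, or -7.12 with the same floor). The channel higher in HepG2 was CACNA1H, a T-type calcium channel, with 6.93, 6 and 5.18 CPM in HepG2 and 0.0707, 0.103 and 0.041 in SH-SY5Y (6.39, SE 0.50, adjusted p = 0.000141). SCN9A, a sodium channel of peripheral neurons, was over 10 CPM in both lines, 70.6, 59.8 and 59.7 in HepG2 and 46.1, 24 and 73.7 in SH-SY5Y, and was not called (95% interval -0.57 to 1.38). Of 26 axon guidance and adhesion genes 20 were higher in SH-SY5Y and 3 in HepG2 (median -8.15, or -6.87 with the same floor). The secreted guidance cue SLIT3 had 0.278, 0.0672 and 0.546 CPM in HepG2 and 308.6, 328.8 and 338.9 in SH-SY5Y (-10.09, SE 0.76, adjusted p = 0.000147), whereas a receptor for SLIT proteins, ROBO1, had 239.9, 244.9 and 224.8 CPM in HepG2 and 47, 20.8 and 60.2 in SH-SY5Y, 5.54-fold higher in HepG2 (2.47, SE 0.40, adjusted p = 0.00265). Ligand and receptor thus had their higher level in opposite lines.

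All 11 neurotrophic receptor genes tested were higher in SH-SY5Y (median -8.18). Of these, 4 had no count in HepG2, and a gene can pass the filter on the counts of 1 line alone. With such genes set at the floor of 3 counts per library, the median was -6.52. ALK had 0, 0 and 0.0661 CPM in HepG2 and 99.8, 42.4 and 164.1 in SH-SY5Y (-12.05, SE 1.11, adjusted p = 0.000304). RET, the signalling receptor for GDNF-family ligands, had 0.087, 0 and 0.116 CPM in HepG2 and 156.7, 96.7 and 120.7 in SH-SY5Y (-10.81, SE 0.81, adjusted p = 0.000143). Outside these lists, LDHB and RGS5 were among the 10 most abundant coding genes called at least 8-fold higher in SH-SY5Y. LDHB, the lactate dehydrogenase subunit of oxidative tissues, had 1.34, 0.353 and 0.876 CPM in HepG2 and 689.1, 664.3 and 690.7 in SH-SY5Y, 794.8-fold higher (-9.63, SE 0.61, adjusted p = 7.21e-05). RGS5, which limits signalling by G proteins, had 6.42, 1.85 and 7.38 CPM in HepG2 and 3549.8, 1935.5 and 4269.9 in SH-SY5Y (-9.28, SE 0.77, adjusted p = 0.000203). Over all neuroblast lists 152 of 172 tested genes were higher in SH-SY5Y and 7 in HepG2, and over all liver lists 142 of 164 were higher in HepG2 and 5 in SH-SY5Y.

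Genes that were abundant in HepG2 and nearly absent from SH-SY5Y, liver genes and others, were mostly read in SH-SY5Y at a similar small share of their HepG2 level, which bears on the log2 fold changes near 9 above. On library totals, 739 genes reached a mean of 200 CPM in HepG2, and 107 of them had under 1% of that level in SH-SY5Y. Their median share was 0.262% (quartiles 0.228% and 0.336%), and the median was 0.266%, 0.273% and 0.262% in the SH-SY5Y libraries 1, 2 and 3. The share was 0.269% for ALB, 0.247% for AFP, 0.247% for TF, 0.228% for SERPINA1, 0.273% for APOB and 0.193% for APOA1. Only 1 gene lay under 0.03% and none between 0.03% and 0.1%, while 91 lay between 0.1% and 0.5%. Accordingly, the 44 liver-list genes called and at 200 CPM or more had log2 fold changes with quartiles of 9.15 and 9.41. The folds of these genes share this level in SH-SY5Y, so they say how low the reading was and do not order the genes by restriction to liver. The gene under 0.03% (ENSG00000273259, a protein-coding entry on chromosome 14, noticed after its value was seen) averaged 660.4 CPM in HepG2 and 0.00977 in SH-SY5Y.

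In the other direction the share was lower and more spread. Of 840 genes at 200 CPM or more in SH-SY5Y, 66 had under 1% of that level in HepG2, with a median of 0.0832% (quartiles 0.0588% and 0.144%). The share was 0.0695% for STMN2, 0.0514% for HAND2, 0.0548% for CHGA and 0.15% for DBH. Over these 66 genes, the deviation of a HepG2 library from its group correlated with that of the SH-SY5Y library of the same number at r = 0.319, 0.624 and 0.47, and with other numbers at -0.656 to 0.262. Over the 107 genes of the first direction the same-number values were 0.0347, 0.158 and 0.0301. Genes of these sets share libraries, so the correlations are descriptions. Folds against so few counts moved with single HepG2 libraries. Without library 1 the log2 fold change was -13.37 for MYCN, -13.74 for CDKN1C, -12.97 for DCN and -10.56 for HAND2-AS1, without library 2 it was -11.35 for GATA3, -11.78 for CHRNB2, -10.22 for RET, -9.65 for PDGFRA and -6.57 for FBP1, and without library 3 it was -15.92 for ALK, -10.85 for SLIT3, -9.93 for LUM, -11.43 for RET, -10.24 for CHRNB2 and -5.32 for FBP1. These 12 genes were still called each time. Whether the low reading is transcription or comes from another source was not tested.

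Markers of other cell types were measured beside those of the 2 named types. All 9 hepatocyte markers had over 10 CPM in HepG2, and 8 of 9 noradrenergic markers had over 100 CPM in every SH-SY5Y library, TH being the one near 0. Epithelial genes went with HepG2: of 20 tested junction and keratin genes 18 were higher there (median 7.44), such as KRT8, with 780.4, 829.8 and 864.4 CPM in HepG2 and 0.99, 1.11 and 1.1 in SH-SY5Y (9.59, SE 0.26, adjusted p = 6.90e-06), and CDH1, the epithelial cadherin, with 78.9, 79.7 and 71.7 CPM in HepG2 and 0.313, 0 and 0.338 in SH-SY5Y (8.40, SE 1.04, adjusted p = 0.000863). Bile duct genes were split. SOX9, a factor of duct and progenitor cells, had 372.9, 336.0 and 348.5 CPM in HepG2 and 7.73, 2.86 and 3.74 in SH-SY5Y (6.20, SE 0.48, adjusted p = 0.000155), while CFTR was at 0 in all 6 libraries and KRT7 under 1 CPM. The summed level of the 10 cholangiocyte genes was 755.5 to 894.7 CPM in HepG2 and 15.1 to 23.4 in SH-SY5Y, and their part in other results was not tested.

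Single markers of blood and vessel cells were higher in HepG2 while their lists were not complete. Of 12 leukocyte genes 8 passed the filter on low counts, which a gene can do on the counts of 1 line alone. All 8 were higher in HepG2 (median 8.77). With genes lacking a count in 1 line set at the floor of 3 counts per library, the median was 4.91. PTPRC and CSF1R, which define leukocytes and macrophages, were under 1 CPM in all 6 libraries. The list's summed level, 4125 to 4461.6 CPM in HepG2 and 6.36 to 9.85 in SH-SY5Y, came almost wholly from lysozyme (LYZ), with 4354.0, 3999.4 and 4151.4 CPM in HepG2 and 5.06, 7.61 and 6.13 in SH-SY5Y (9.38, SE 0.30, adjusted p = 6.90e-06). Of 8 tested endothelial genes 5 were higher in HepG2 and 1 in SH-SY5Y (median 8.01, or 4.98 with the same floor). The endothelial cadherin CDH5 had 4.56, 4.55 and 4.4 CPM in HepG2 and no count in SH-SY5Y, at least 128.6-fold higher over the floor (adjusted p = 0.000313). Summed endothelial levels were 18.3 to 22.3 CPM in HepG2 and from 7.29 to 39.2 CPM in SH-SY5Y and overlapped. Of 7 tested embryonic kidney genes 4 were higher in HepG2 and 3 in SH-SY5Y: PAX8 had 8.23, 7.64 and 8.76 CPM in HepG2 and no count in SH-SY5Y (at least 234.6-fold, adjusted p = 0.00021), and SIX2 had 2.92, 17.8 and 5.18 CPM in SH-SY5Y and no count in HepG2 (at least 170.0-fold, adjusted p = 0.00338).

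Fibroblast genes went with SH-SY5Y: of 15 tested 12 were higher there and 1 in HepG2 (median -6.96). The platelet-derived growth factor receptor PDGFRA had 0.139, 0 and 0.132 CPM in HepG2 and 103.8, 55.9 and 175.1 in SH-SY5Y (-10.25, SE 1.00, adjusted p = 0.000365). The matrix genes varied between SH-SY5Y libraries: LUM had 53, 11.3 and 16.5 CPM and DCN 31.4, 4.4 and 3.58 CPM in SH-SY5Y, with library 1 highest in both (-8.87 and -9.46, adjusted p = 0.000957 and 0.00275, and -7.92 and -7.73 without library 1). Summed fibroblast levels were 90.2 to 99.3 CPM in HepG2 and 431.8 to 599.7 in SH-SY5Y. The mesenchymal state known from neuroblastoma lines was not clearly on one side: of 12 tested genes 6 were higher in HepG2 and 4 in SH-SY5Y (median 2.31). Its factor PRRX1 was at 0 in all 6 libraries. SNAI2 had 12.1, 7.21 and 10.8 CPM in SH-SY5Y and 0.191, 0.134 and 0.182 in HepG2 (-5.88, SE 0.42, adjusted p = 9.95e-05), and the Hippo effector YAP1 had 267.8, 250.2 and 276.8 CPM in HepG2 and 3.31, 0.586 and 0.205 in SH-SY5Y (7.59, SE 1.15, adjusted p = 0.00193). YAP1 too was highest in library 1 within SH-SY5Y (9.41 without it). Of the Schwann and melanocyte genes SOX10 was at 0 in all 6 libraries.

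Among programmes that both lines use, growth genes of the fetus were unequal. Of 14 tested oncofetal and imprinted genes 10 were higher in HepG2 and 2 in SH-SY5Y (median 4.44). HMGA2, a chromatin protein of embryonic cells, had 263.5, 269.8 and 313.9 CPM in HepG2 and 0.495, 0.616 and 0.369 in SH-SY5Y (9.16, SE 0.34, adjusted p = 8.39e-06). The growth factor IGF2 had 13856.6, 14033.5 and 12453.1 CPM in HepG2 and 31.3, 58.3 and 28 in SH-SY5Y (8.42, SE 0.43, adjusted p = 3.08e-05). Its imprinted neighbour H19, a non-coding RNA, was reversed, with 0.487, 3.09 and 4.2 CPM in HepG2 and 255.3, 801.0 and 225.6 in SH-SY5Y (-7.36, SE 1.05, adjusted p = 0.00156, and -6.50 without SH-SY5Y library 2). CDKN1C, a growth inhibitor in the same chromosome 11 region and like H19 expressed from the maternal copy, had 0.0696, 0 and 0 CPM in HepG2 and 14.9, 36.3 and 15.5 in SH-SY5Y (-9.83, SE 1.05, adjusted p = 0.000516). The paternally expressed gene was thus the one high in HepG2, and the 2 maternally expressed genes were high in SH-SY5Y. DLK1 was not called, with 434.5, 439.5 and 445.2 CPM in HepG2 and 152.3, 1366.8 and 438.0 in SH-SY5Y (-0.57, 95% interval -2.26 to 1.12), and its sign turned without SH-SY5Y library 2, its highest, again with no call (0.61, adjusted p = 0.208).

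Feedback targets of Wnt signalling were higher in HepG2 for 7 of 11 tested and higher in SH-SY5Y for 1 (median 2.30). RNF43, which removes Wnt receptors, had 123.2, 125.7 and 108.0 CPM in HepG2 and 0.121, 0.088 and 0.102 in SH-SY5Y, 1116.3-fold higher (10.12, SE 0.32, adjusted p = 6.90e-06). SP5, a target factor, had 112.4, 111.6 and 107.3 CPM in HepG2 and 0.0808, 0.117 and 0.113 in SH-SY5Y (10.05, SE 0.32, adjusted p = 6.90e-06). AXIN2, the scaffold of the beta-catenin destruction complex, had 104.3, 97.2 and 94.7 CPM in HepG2 and 15.3, 7.86 and 17.4 in SH-SY5Y (2.87, SE 0.35, adjusted p = 0.000825). DKK1, a secreted Wnt antagonist, was not called, with 92.4, 89.8 and 104.7 CPM in HepG2 and 120.6, 92.6 and 105.3 in SH-SY5Y (-0.15, 95% interval -0.64 to 0.34).

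Sterol synthesis, chaperone and early response genes leaned to HepG2. Of 20 cholesterol synthesis genes 13 were higher in HepG2 and 2 in SH-SY5Y (median 2.40), and without SH-SY5Y library 2 these counts were 18 and 2. MSMO1, a sterol demethylase, had 679.9, 710.3 and 751.5 CPM in HepG2 and 36.6, 34.5 and 51.6 in SH-SY5Y (4.12, SE 0.25, adjusted p = 5.52e-05). Of 20 chaperones 12 were higher in HepG2 and 2 in SH-SY5Y (median 0.97). The endoplasmic reticulum chaperone HSPA5 had 2261.3, 2325.2 and 2089.5 CPM in HepG2 and 313.2, 165.1 and 275.9 in SH-SY5Y (3.15, SE 0.29, adjusted p = 0.000316). Cytosolic HSP90AA1 was not called (-0.24, 95% interval -1.03 to 0.55), but was called higher in SH-SY5Y without library 2 (-0.51, adjusted p = 0.000696), where 4 chaperones were higher in SH-SY5Y. Of 14 immediate early genes 9 were higher in HepG2 and none in SH-SY5Y (median 2.06), among them JUN, with 88.2, 95.8 and 80.4 CPM in HepG2 and 23.4, 23.5 and 22.5 in SH-SY5Y (1.93, SE 0.21, adjusted p = 0.000459). Of 22 interferon-stimulated genes 15 were higher in HepG2 and 1 in SH-SY5Y (median 1.69), such as BST2, a tether of budding viruses, with 59.2, 58.5 and 54.5 CPM in HepG2 and 0.485, 0.381 and 0.205 in SH-SY5Y (7.32, SE 0.43, adjusted p = 5.35e-05). For these early response and interferon genes, too, line and transfection method cannot be told apart.

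DNA replication genes leaned to SH-SY5Y. Of 29 tested 24 were higher in SH-SY5Y and none in HepG2 (median -1.32), and without SH-SY5Y library 2 the counts were 26 and 1 (median -1.25). Without any 1 HepG2 library 15 were higher in SH-SY5Y. MCM7, a subunit of the replicative helicase, had 123.2, 134.5 and 137.1 CPM in HepG2 and 587.1, 1327.7 and 656.9 in SH-SY5Y (-2.70, SE 0.36, adjusted p = 0.00121), and library 2 held its highest value (log2 fold change -2.21 without it). MCM2, another subunit, had 73.9, 76.8 and 82.8 CPM in HepG2 and 177.4, 249.6 and 198.5 in SH-SY5Y (-1.42, SE 0.22, adjusted p = 0.0018). The ribonucleotide reductase gene RRM2 did not follow, with 194.3, 231.7 and 233.7 CPM in HepG2 and 209.3, 177.8 and 228.4 in SH-SY5Y (95% interval -0.38 to 0.58). Mitosis genes had no common side, 5 higher in HepG2 and 2 in SH-SY5Y of 24 (median -0.11): the kinase AURKA had 197.0, 203.5 and 206.5 CPM in HepG2 and 41.8, 34.5 and 45.2 in SH-SY5Y (2.32, SE 0.21, adjusted p = 0.00024), and the kinetochore protein CENPF 87.9, 90.9 and 102.2 and 297.5, 172.1 and 450.5 CPM (-1.71, SE 0.36, adjusted p = 0.00752). Of 20 p53 targets 6 were higher in HepG2 and 3 in SH-SY5Y (median 0.57), and 13 and 3 without library 2. The stress cytokine GDF15 had 387.2, 432.6 and 401.6 CPM in HepG2 and 15.2, 30.7 and 6.16 in SH-SY5Y (4.55, SE 0.61, adjusted p = 0.00122, and 5.27 without library 2). CDKN1A and MDM2, leading p53 targets, were not called (adjusted p = 0.484 and 0.0644). MDM2 was called higher in HepG2 without SH-SY5Y library 2 (0.63, adjusted p = 0.000528), and CDKN1A in the EXACT1 libraries (1.45, adjusted p = 0.0118).

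The counts of some lists of household genes changed without SH-SY5Y library 2, while calls over all genes rose from 53.2% to 70.1%. Of 75 cytosolic ribosomal protein genes 3 were higher in HepG2 and 2 in SH-SY5Y with all 6 libraries (median -0.27). Without library 2 the counts were 52 and 7 and the median 0.42. RPL4, of the large subunit, had 2605.4, 2570.7 and 2459.0 CPM in HepG2 and 1586.7, 2918.3 and 1701.7 in SH-SY5Y (0.30, adjusted p = 0.395), library 2 being the highest of the 6, and a log2 fold change of 0.66 without it (adjusted p = 0.000106). Nuclear respiratory chain genes moved from 8 and 3 of 50 (median -0.20) to 29 and 11 (median 0.45). UQCRC2, a core subunit of complex III, was higher in HepG2 both times, with 563.2, 554.8 and 541.1 CPM in HepG2 and 92.9, 86.4 and 98.4 in SH-SY5Y (2.58, SE 0.19, adjusted p = 0.000111). Proteasome genes went from 3 and 7 of 31 to 12 and 12, splicing factors from 1 and 12 of 29 to 6 and 17, mitosis genes from 5 and 2 of 24 to 8 and 10, and metallothioneins from 3 and 0 of 6 to 6 and 0. The metal-binding MT2A had 60.2, 96.6 and 93.6 CPM in HepG2 and 3.67, 15.1 and 4.82 in SH-SY5Y (3.41, SE 0.62, adjusted p = 0.00393, and 4.33 without library 2).

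The deviation of library 2 went with gene length. Its log2 level over the mean of SH-SY5Y libraries 1 and 3 had a median of 0.74 in the coding genes with the shortest summed exons (381 to 3504 bases), then 0.03, -0.39 and -0.85 in the 3 groups of longer genes, with 2725 or 2726 genes in each group. The median difference between the lines by length group ran from -0.32 to 0.11 with all 6 libraries, and was 0.07, -0.0065, -0.07 and -0.02 without library 2. The part of length in single results was not tested.

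Long non-coding RNA genes were called in a smaller share than coding genes, but more of them passed with a 4-fold difference. Of 2977 tested, 49.3% were called, against 56% of 14763 protein-coding genes, and 466 were at least 4-fold higher in HepG2 and 812 in SH-SY5Y (42.9% in all, against 35.2% of coding genes). Without SH-SY5Y library 2, 54.1% of 3442 were called, against 77.4% of 15142 coding genes. At 4-fold the shares were then 44.6% and 34.9%. LINC00261, a neighbour of FOXA2 on chromosome 20, had 170.9, 163.1 and 165.1 CPM in HepG2 and 0.445, 0.22 and 0.246 in SH-SY5Y (9.08, SE 0.41, adjusted p = 1.96e-05). HAND2-AS1, transcribed opposite HAND2, had 0.452, 0.151 and 0.182 CPM in HepG2 and 292.5, 208.0 and 270.8 in SH-SY5Y (-9.94, SE 0.56, adjusted p = 4.77e-05). Whether the counting used strand is not given in the sources used here, so reads of antisense RNAs and their partners may be mixed.

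Medians also differed by chromosome. Over 10902 coding genes with a mean of at least 5 CPM, the median log2 fold change minus that of all autosomes was 0.63 on chromosome 20, 0.56 on chromosome 2, 0.49 on chromosome 6 and -0.71 on chromosome 7. Without SH-SY5Y library 2 these were 0.67, 0.43, 0.46 and -0.77. In the libraries with EXACT1 plasmid, which share none with the controls, they were 0.85, 0.27, 0.41 and -0.82, and 0.65, 0.41, 0.43 and -0.78 without HepG2 EXACT1 library 1. The size of the chromosome 19 value rested in part on library 2, at -0.83 with it and -0.37 without. In the EXACT1 libraries it was 0.05, and -0.39 without HepG2 EXACT1 library 1. With SH-SY5Y library 2 and HepG2 EXACT1 library 1 left out, only chromosome 7 lay lower in each set. The other 17 autosomes lay between -0.26 (chromosome 11) and 0.25 (chromosome 13) with all 6 control libraries. Some of these moved without SH-SY5Y library 2: chromosome 13 went to 0.0054, chromosome 16 from 0.06 to 0.26 and chromosome 22 from -0.12 to 0.24. DNA copy number was not analysed here.

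A difference of over 2-fold lay outside the 95% interval for 1561 genes (7.89%), and for 4670 of 20991 (22.2%) without SH-SY5Y library 2. Leaving out HepG2 library 1, 2 or 3 gave 602, 588 and 608 such genes, and leaving out SH-SY5Y library 1 or 3 gave 851 and 1149. The splicing helicase SNRNP200 was one, with 521.6, 506.2 and 499.5 CPM in HepG2 and 505.2, 483.1 and 604.0 in SH-SY5Y (-0.06, 95% interval -0.51 to 0.39). The proteasome subunit PSMA2 was another, with 109.5, 106.6 and 120.2 CPM in HepG2 and 104.1, 128.1 and 103.0 in SH-SY5Y (0.0048, 95% interval -0.47 to 0.48). Promoters of close genes carried the NRF1 motif GCGCATGCG, known from genes of mitochondria and basic metabolism, in 5.41% of 1276, against 1.23% of those of HepG2 genes, 1.86% of those of SH-SY5Y genes, 3.41% of those tested and 2.1% of all. They carried TATAAA in 4.15% and the HNF1 element in 0.235%. Without SH-SY5Y library 2 the NRF1 share was 4.76% of 3741 promoters of close genes, against 3.34% of those tested. The NRF1 motif holds CpG dinucleotides (a C followed by a G). Their median number was 27 in promoters of close genes, 21 for HepG2 genes, 24 for SH-SY5Y genes, 26 for those tested and 14 for all. The part of this composition in the motif shares was not tested. ATP5F1C, a subunit of the mitochondrial ATP synthase, is shown as an example from RefSeq GRCh38.p14, again as the 100 bases before the start, with 2 overlapping NRF1 matches on opposite strands in capitals. Its level was 156.7, 155.2 and 161.7 CPM in HepG2 and 101.2, 144.5 and 103.5 in SH-SY5Y (95% interval -0.08 to 0.96), and it was called without library 2 (0.65, adjusted p = 0.000121).
ATP5F1C (chr10:7788077-7788176, plus strand): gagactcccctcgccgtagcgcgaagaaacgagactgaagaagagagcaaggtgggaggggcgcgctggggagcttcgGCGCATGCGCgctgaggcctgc

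The comparison was repeated in the EXACT1 libraries of the 2 lines, 3 against 3, which share no library with the controls. There 10540 of 20105 genes were called (52.4%), 4886 higher in HepG2 (24.3%) and 5654 higher in SH-SY5Y (28.1%), and at 4-fold 3257 (16.2%) and 4077 (20.3%). Of these calls, 8093 had the direction called in the controls (76.9% of the control calls and 76.8% of these), and 2 in the opposite one. Leaving out the outlying library on each side, SH-SY5Y control library 2 and HepG2 EXACT1 library 1, gave 14714 and 15515 calls, with 13564 shared (92.2% and 87.4%) and 2 opposite. The log2 fold change in the EXACT1 libraries was 9.26 for ALB, 9.39 for HNF4A, 9.94 for RNF43, -9.95 for STMN2, -10.36 for HAND2 and -9.01 for LDHB, beside 9.16, 9.24, 10.12, -9.84, -10.31 and -9.63 in the controls. These 6 genes kept their direction between the plasmids.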

How the data were processed

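Polyadenylated RNA was sequenced with a TruSeq Stranded mRNA kit, per the labels' protocols. The deposited table holds raw counts, which the authors had not normalized, for 60612 Ensembl genes in 18 libraries. Tools named in the submitters' processing notes are HISAT2, StringTie, cutadapt, limma and edgeR, with GRCh38 (hg38) as build. Versions, settings and strand are not given in these sources. Columns were matched to samples by title.

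Counts of the 6 libraries were tested with edgeR 4.0.16 in R 4.3.3 (filterByExpr, TMM, robust quasi-likelihood F test, two-sided, calls at a Benjamini-Hochberg adjusted p under 0.05). Each log2 fold change is HepG2 over SH-SY5Y, with SE from the test. CPM are on TMM-scaled library sizes, except shares between lines, which are on library totals. TPM used GENCODE 29 exon lengths. Replicate pairs differed by 14.7 to 766.7 in chi-square per gene, far above sampling noise, and by at most 49.4 in pairs without SH-SY5Y library 2. Each library counted as 1 replicate. The spread does not tell whether the libraries stem from different cultures. The test was also run on simulated counts in which few genes differed between the lines, equally in both directions. That run cannot judge the scaling used here, where many genes differed.

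The members and the 43 gene lists (896 entries, all matched) were chosen with earlier results of these data known, and no list was tested. Named genes were, by rule, the 10 most abundant coding and 4 long non-coding genes per direction among calls at least 8-fold apart without overlap, up to 4 called and 2 uncalled members of each list, up to 3 members against a list's direction, and the defining markers. Further genes were chosen after their values were seen: list members near 0, and MYCN, HMGA2, SP5, AXIN2, CEBPA, CDH1, NEFM, MAP2, GAL, SLC6A2, SLC18A1, CPS1, F2, MCM2, CDKN1C, ATP5F1C, PSMA2, C4BPA, F13B, SLCO1B3, LIPC and PROZ. Some genes that the rule names are not reported here. Alternatives were DESeq2 1.42.0, limma 3.58.1 voom with sample weights, other scalings and filters, a test against 2-fold, a replicate block, a fit of 12 libraries, the EXACT1 libraries and each library left out. Leaving out HepG2 EXACT1 library 1 was added after seeing the data. Same-numbered libraries of the 2 lines were not treated as pairs.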

Additional observations from a re-analysis of the deposited data

How the results depend on the processing

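The counts of calls lay within 1.5 times the main value in each alternative except the filter at a mean of 5 CPM, which tests fewer genes and left 6660 calls and 3570 at 4-fold. Leaving out 1 library gave 8631 to 14714 calls, 6940 to 7622 at 4-fold and 588 to 4670 genes close in both lines, with the highest value of each without SH-SY5Y library 2. Over all genes tested, same-numbered libraries correlated in their deviations at only 0.0242, 0.0533 and 0.0428, so numbers were not taken as pairs, although each library correlated best with its own number. With the replicate block there were 8725 calls, 6373 at 4-fold and 942 close genes. Library totals in place of TMM gave 11707 calls, of which 9154 were shared with the main set in the same direction, and 962 close genes; the voom fit with sample weights, which gave SH-SY5Y library 2 a weight of 0.05139, made 14705 calls.

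Of 239 called genes among those chosen to be named, 238 kept direction and call under DESeq2, 221 under library totals, 229 with the block and 214 of 237 in the EXACT1 libraries. The 10 that lost the call with the block were CYP2C8, PMEL, MYC, STAT2, MCM3, PCNA, RPS3A, ATP5F1A, PSMB4 and SF3B3. Of 64 such genes not called, 13 gained a call under DESeq2, 16 under library totals, 1 with the block and 22 of 63 in the EXACT1 libraries, and 30 without SH-SY5Y library 2. Library totals lowered the median over all genes from -0.27 to -0.91 and took ATP5F1A and SF3B3 below 0 (-0.03 and -0.06). Signs also changed for EGFL7 (0.74), MT-ND2 (0.01) and MT-CYB (0.09) in the EXACT1 libraries, for DLK1 with the voom fit (1.03), and for RPS2 without SH-SY5Y library 2 (0.40, with a range of -1.08 to 0.40 as each library was left out) and in the EXACT1 libraries without HepG2 library 1 (0.45); the cause was not tested. Depth limits little here at levels over 1 CPM. Values under that rest on few counts, and for genes without a count in 1 line the fold is only a lower bound.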

Other observations

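Single genes in SH-SY5Y library 2 lay far from libraries 1 and 3 beyond the trend with length. The sterol demethylase CYP51A1 had 0.132 CPM in library 2 and 61.6 and 83.2 CPM in libraries 1 and 3, and the RNA-binding protein IGF2BP3 had 3.67 against 64.1 and 73.4 CPM. In the other direction, the proprotein convertase inhibitor PCSK1N had 265.9 CPM against 37.4 and 28.9. Neither CYP51A1 nor IGF2BP3 nor PCSK1N was called between the lines with all 6 libraries (adjusted p = 0.128, 0.288 and 0.15). Without library 2, CYP51A1 and IGF2BP3 were called higher in HepG2 (log2 fold changes of 2.60 and 0.71, adjusted p = 5.54e-06 and 0.000168). These genes were chosen after their values were seen.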
